A study of Arabidopsis thaliana with 14 samples.

Results

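Maternal tissues of the Arabidopsis thaliana seed were compared with the products of fertilisation inside it. The maternal side held the chalazal seed coat and the seed coat (4 arrays), and the filial side held the embryo proper and the micropylar, peripheral and chalazal endosperm (8 arrays). Together these were 12 of the 14 arrays of the series, and the remaining 2 were whole seeds. A probe set was taken as a member when the mean of both seed coat groups differed from the mean of the 4 filial groups (adjusted p under 0.05) and both seed coat groups lay above, or both below, all 4 filial groups. Of 14252 probe sets tested, 2294 were such members on the higher side (16.1%) and 2179 on the lower side (15.3%). Where a probe set belonged to 1 gene, these were 1177 and 1173 of 7729 genes (15.2% each). Before any filter or test, the position rule alone held for 3891 probe sets above and 2955 below, of 22746 that are not controls.

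The seed coat develops from the integuments of the ovule and so carries the genotype of the mother plant, whereas embryo and endosperm each arise from a fertilisation event. In Arabidopsis the outer integument makes mucilage, the inner one makes condensed tannins, and the chalazal end is where the vascular strand of the mother ends and nutrients are unloaded. The embryo and the endosperm fill with storage protein and oil and acquire desiccation tolerance during maturation, while the cells of the coat later die.

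All groups were of the genotype Ws-0 at the mature green stage, grown under continuous light. Chalazal seed coat, seed coat, embryo proper, micropylar endosperm, peripheral endosperm, chalazal endosperm and whole seeds had 2 arrays each, which the labels call biological replicates without saying which plants or seeds each came from. P-values therefore measure the spread between these arrays only, and captures of different compartments may stem from the same seeds. Compartments were cut by laser from paraffin sections of siliques 1.8 to 2.0 cm long from plants 38 to 46 days old, and between 5 and 6 ng of RNA per sample went into the amplification. A captured area can hold cells of a neighbouring layer. In such bulk samples fewer cells of a type and less RNA per cell cannot be told apart.

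The labels were checked against defining markers as far as probe sets were assigned to them. The embryo markers YAB3 and STOMAGEN gave 1978 and 1557 and 5110 and 2983 in embryo proper, against at most 175 (seed coat replicate 2) and 32.9 on any array of the coat. BAN, the anthocyanidin reductase of tannin synthesis, gave 357 and 1189 in chalazal seed coat but 24.0 and 24.8 in seed coat, which does not separate seed coat from the filial groups. DFR, which acts before it in the same pathway, was higher on all 4 seed coat arrays than on any filial array. The remaining seed coat marker with a probe set, DELTA-VPE, gave 540 to 2102 on the 4 seed coat arrays. It gave 5.93 and 4.35 in embryo proper but 535 to 2153 on the endosperm arrays, and so did not separate the coat from endosperm. Of 10 seed coat, 7 endosperm, 6 embryo and 5 vascular markers, only 3, 1, 2 and 0 had an assigned probe set. The endosperm marker AGL62 was not tested and lay between 0.94 and 119 on the endosperm arrays, so the endosperm labels could not be checked with it.

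The seed coat arrays stood apart in their hybridisation controls. Hybridisation controls of a fixed amount, which are added to each labelled sample, had a geometric mean of 82313 and 117011 in seed coat, whereas the other 12 arrays ranged between 33513 and 54626. The 2 seed coat arrays had the lowest replicate correlation over probe sets (Pearson r = 0.814, against 0.865 to 0.930 in the other groups). Ratios of the 3′ to the 5′ probe sets of actin were 13.2 and 5.49 in chalazal seed coat and 4.13 and 7.36 in seed coat, against 8.69 to 16.9 in the filial groups. The part of these differences in the results was not tested, apart from the scalings and omissions below.

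Many probe sets changed in both directions. In limma with Benjamini-Hochberg adjustment, 6397 of 14252 probe sets (44.9%) were called, of which 3155 (22.1%) were higher and 3242 (22.7%) lower in the maternal seed coats than in embryo and endosperm. The median difference over all probe sets was -0.03 on the log2 scale. Among the members, whose direction the rule fixed, the median difference was 1.90 on the higher side and -1.66 on the lower side. With the arrays as deposited, large differences were mostly on the higher side. A log2 difference of at least 5 in size was found for 120 higher and 11 lower members, and of at least 6 for 44 and 1. Scaling to the hybridisation controls moved the median difference by -0.70, and these counts are not given under it. On 1273 higher members (8.93% of the probe sets tested) and 960 lower ones (6.74%), all 4 seed coat arrays lay beyond all 8 filial arrays.

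**Figure D1:**
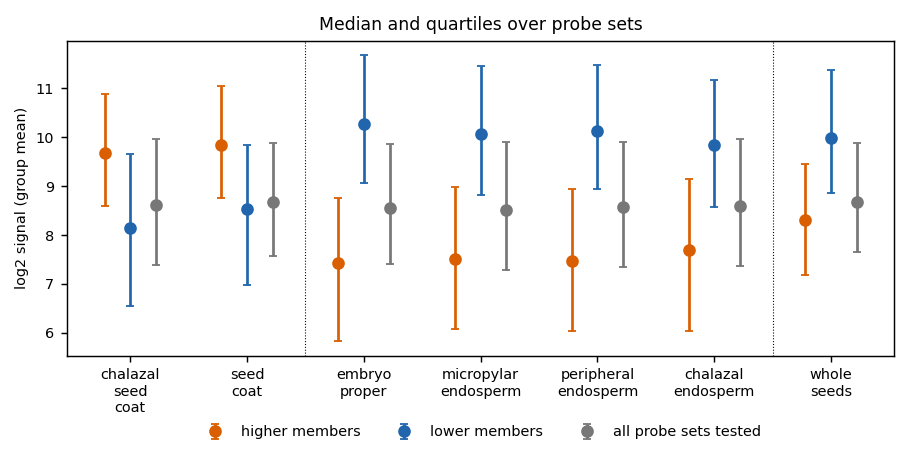
Median (points) and quartiles (bars) of the log2 group mean over the 2294 higher members, the 2179 lower members and all 14252 probe sets tested, for each of the 7 groups (x axis). The y axis is the log2 signal with values under 25 raised to 25; the 6 left groups were used to choose the members, and whole seeds were not.

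As chosen, the higher members had median log2 levels of 9.67 in chalazal seed coat and 9.83 in seed coat, against 7.43 to 7.70 in the filial groups. The lower members had 8.14 in chalazal seed coat and 8.52 in seed coat, against 9.84 to 10.27. The filial group nearest to the seed coats was most often the chalazal endosperm, for 802 of 2294 higher and 1038 of 2179 lower members. The share over all probe sets tested is not given. Chalazal endosperm also had the lowest replicate correlation of the filial groups (Pearson r = 0.879, against 0.907 to 0.930), and the part of this was not tested. Few members were under the floor of 25 on a whole side: 12 higher members on all 8 filial arrays and 12 lower members on all 4 seed coat arrays. No filial array was under the floor for 1405 higher members, and no seed coat array for 1680 lower ones.

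The split between directions depended on the scaling of the arrays. As deposited, each array had the same trimmed mean, and 51.3% of the members were on the higher side. Under quantile normalization the members were 2103 higher and 2477 lower, and under scaling to the array median 1692 and 2927 (36.6% higher). Scaling to the hybridisation controls moved the median of all probe sets by -0.70 on the log2 scale and left 978 higher and 3859 lower members (20.2% higher), of which 976 and 2162 were among those listed above. With both seed coat arrays left out, so that chalazal seed coat alone stood for the maternal side, 2547 higher and 2692 lower members were found, and 1751 and 1817 were shared. With both chalazal seed coat arrays left out these were 2323 and 2428, with 1724 and 1737 shared.

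**Figure D2:**
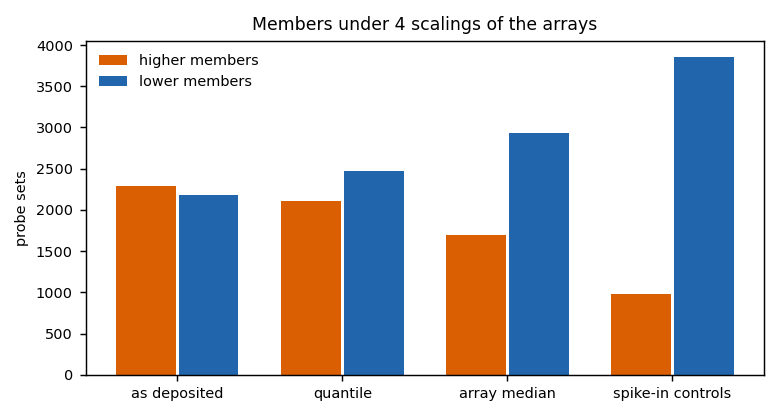
Number of higher (left bar of each pair) and lower members (right bar) under 4 scalings of the same arrays (x axis). Higher members number 2294 as deposited and 978 under the spike-in controls, whereas lower members number 2179 and 3859.

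The largest differences on the higher side belonged to genes that carry only a locus name in the tables used, and no role is given for them. AT3G14760 gave 2272 and 6007 in chalazal seed coat and 34746 and 25495 in seed coat, against 3.38 to 96.1 (median 8.0) over the 8 filial arrays. All 4 seed coat arrays were far above every filial array, and seed coat was above chalazal seed coat. The difference was 8.46 ± 0.39 on the log2 scale (limma, adjusted p = 2.9e-10), with 6 of 8 filial arrays raised to the floor. AT1G62070 reached the highest level of these genes, 4931 and 26705 in chalazal seed coat and 92803 and 110940 in seed coat, against 6.47 to 1099.5 (median 164) in the filial groups. Its groups did not overlap either, although the filial arrays spread widely. The difference was 7.68 ± 0.78 (adjusted p = 8.6e-07).

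AT5G63180 was the gene with the widest gap between the sides. It gave 2422 and 2543 in chalazal seed coat and 6128 and 4977 in seed coat, against 5.57 to 18.3 (median 10.2) in the filial groups. Every filial array was under the floor, so that the level in the seed coats was at least 148-fold higher (log2 difference 7.21 ± 0.36, adjusted p = 6.9e-10). AT5G47330 gave 3309.6 and 4619 in chalazal seed coat and 9996 and 9343 in seed coat, against 3.66 to 76.7 (median 44.2) in the filial groups. AT2G25450 gave 4893 and 9346 in chalazal seed coat and 20199 and 15676 in seed coat, against 33.8 to 144 (median 103) in the filial groups, and no filial array was under the floor. Both were high on all 4 seed coat arrays and did not overlap, with differences of 7.24 ± 0.33 (adjusted p = 2.9e-10) and 7.05 ± 0.37 (adjusted p = 1.1e-09).

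Level within the coat varied among these genes. AT1G62210 gave 1097 and 851 in chalazal seed coat and 22595 and 21617 in seed coat, against 1.98 to 160.1 (median 12.9) in the filial groups. The seed coat arrays lay far above the chalazal ones, and the difference between them was -4.52 ± 0.73 (adjusted p = 0.00075). AT3G14560 went the other way, with 17621 and 10421 in chalazal seed coat and 4786 and 2489 in seed coat, against 6.04 to 124 (median 72.9) in the filial groups, but its difference within the coat did not pass the test (1.97 ± 0.73, adjusted p = 0.082). AT5G47150 was even across the coat, with 5929 and 4856 in chalazal seed coat and 5690.1 and 5209.5 in seed coat, against 8.39 to 104 (median 73.6) in the filial groups. The other genes named by the rule on this side (AT3G22620, AT2G46600, AT1G26930 and AT5G39130) differed by 6.82 to 7.09 on the log2 scale, and none of their seed coat arrays overlapped the filial ones.

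**Figure D3:**
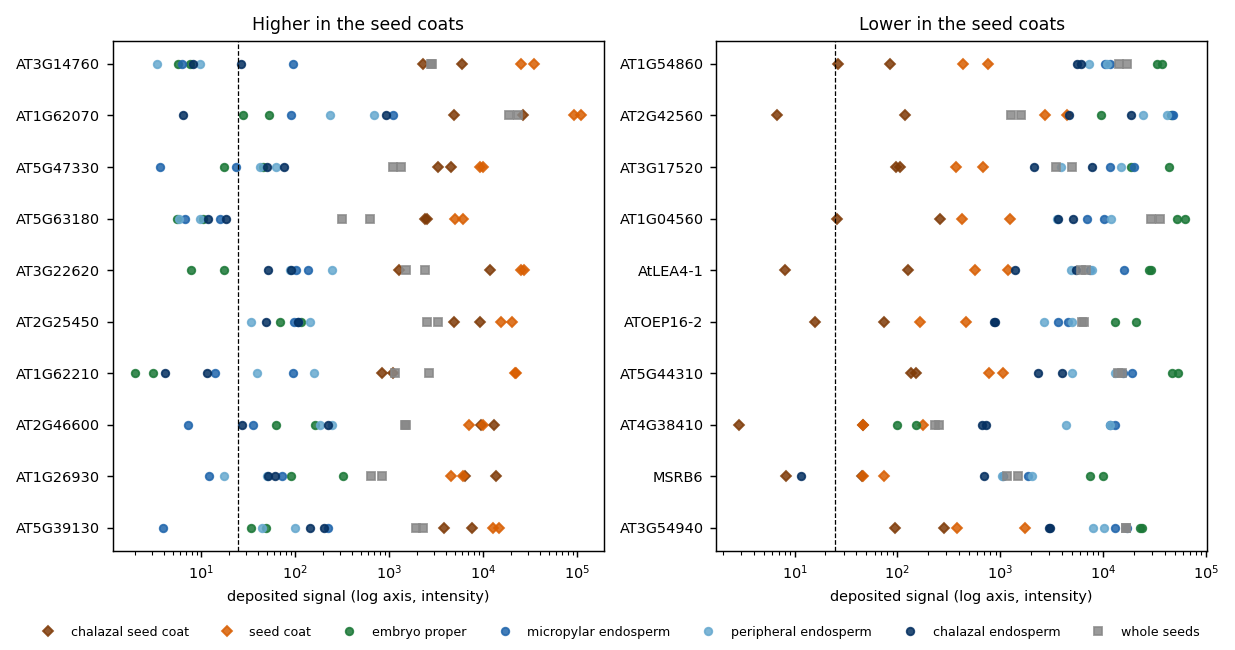
Deposited signal of each array (log x axis, intensity) for the 10 genes with the largest difference on the higher side (left panel) and on the lower side (right panel). Diamonds are the 4 seed coat arrays, circles the 8 filial arrays and squares the 2 whole seed arrays, and the dashed line is the floor of 25; on the left, all diamonds of a gene lie to the right of its circles.

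Among genes with a symbol, RING1, a RING finger ubiquitin ligase, had the largest difference. It gave 916 and 3217 in chalazal seed coat and 2265 and 3417 in seed coat, against 2.34 to 16.4 (median 4.90) in the filial groups, and all 8 filial arrays were under the floor. The level was at least 87.4-fold higher in the seed coats (log2 difference 6.45 ± 0.42, adjusted p = 8.8e-09). GILT, a thiol reductase, gave 158 and 8537 in chalazal seed coat and 7412 and 5354 in seed coat, against 2.42 to 141 (median 8.44) in the filial groups. The 2 chalazal arrays differed widely, and the lower of them was close to the highest filial array. The difference was 6.45 ± 0.75 (adjusted p = 3.8e-06), with 7 of 8 filial arrays under the floor.

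GH3.9, of the family of enzymes that join auxin to amino acids, gave 8848 and 7779 in chalazal seed coat and 5766 and 4896 in seed coat, against 13.1 to 396 (median 144) in the filial groups. It was high throughout the coat and did not overlap the filial groups (5.75 ± 0.45, adjusted p = 4.6e-08). RR22, a response regulator of the cytokinin phosphorelay, gave 23601 and 18562 in chalazal seed coat but 309.8 and 655 in seed coat, against 4.99 to 628 (median 106) in the filial groups. The chalazal arrays carried the signal, and the seed coat arrays overlapped the filial ones. RR22 differed between sides by 5.10 ± 0.53 (adjusted p = 1.0e-06) and within the coat by 5.54 ± 0.86 (adjusted p = 0.00053). BRH1, a RING-H2 gene that responds to brassinosteroid, and ARL, an ARGOS-like gene of cell expansion, differed by 4.45 ± 0.42 (adjusted p = 4.5e-07) and 4.36 ± 0.43 (adjusted p = 6.5e-07). Their seed coat arrays lay between 724 and 1401 for BRH1 and between 271 and 2146 for ARL, above every filial array.

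ATSPS4F, a sucrose phosphate synthase, gave 14157 and 14012 in chalazal seed coat and 305 and 558 in seed coat, against 55.9 to 177 (median 93.5) in the filial groups. Both seed coat groups were above all filial arrays, but the chalazal level was by far the higher (5.09 ± 0.52 within the coat, adjusted p = 1.3e-05). The difference between sides was 4.57 ± 0.32 (adjusted p = 1.5e-08). BGLU45, a beta-glucosidase that releases lignin precursors from their glucosides, gave 5119.9 and 2447 in chalazal seed coat and 6237 and 4801 in seed coat, against 10.2 to 478 (median 120.5) in the filial groups. Its groups did not overlap (5.19 ± 0.35, adjusted p = 1.1e-08). UGT73B1, a glucosyltransferase, and scpl35, a serine carboxypeptidase-like gene, differed by 4.60 ± 0.58 and 4.36 ± 0.46 (adjusted p = 9.2e-06 and 1.2e-06).

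Mucilage genes rose together. Of 34 listed genes of mucilage and integument, 4 were tested, and all 4 were called higher and were members, with a median difference of 3.22, against -0.06 and 20.8% called higher over all 7729 genes tested. ARA12, a subtilase needed for mucilage release, gave 5423 and 10122 in chalazal seed coat and 19636 and 11495 in seed coat, against 412 to 1557 (median 1334) in the filial groups. All 4 seed coat arrays were above the highest filial array (3.38 ± 0.25, adjusted p = 2.9e-08). AT3G50990, which encodes peroxidase 36, gave 207 and 321 in chalazal seed coat and 310 and 338 in seed coat, against 3.94 to 65.0 (median 13.9) in the filial groups, with 5 of 8 filial arrays under the floor (3.07 ± 0.44, adjusted p = 3.1e-05).

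The other 2 mucilage list genes carry only locus names. AT3G10320 gave 340.1 and 391 in chalazal seed coat and 534 and 414 in seed coat, against 4.16 to 38.9 (median 11.3) in the filial groups, and was nearly even across the coat (3.95 ± 0.39, adjusted p = 6.6e-07). AT2G22900 gave 1382 and 3396 in chalazal seed coat and 6635 and 9260 in seed coat, against 638 to 1549.5 (median 1092) in the filial groups. Its lower chalazal array overlapped the filial arrays, and seed coat was above chalazal seed coat (chalazal minus seed coat -1.85 ± 0.43, adjusted p = 0.0087). The difference between sides was 1.90 ± 0.26 (adjusted p = 2.1e-05).

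Flavonoid genes did not move as a group. Of 31 listed, 5 were tested, of which 3 were called higher and 1 lower, beside 20.8% and 22.7% of all genes, with a median difference of 0.99. The median was 0.17 without the 2 seed coat arrays and -0.24 without the 2 chalazal seed coat arrays, with 2 higher and 1 lower in each case. DFR, the dihydroflavonol reductase that feeds tannin and anthocyanin synthesis, gave 932 and 2907 in chalazal seed coat and 185 and 292 in seed coat, against 2.55 to 133 (median 90.4) in the filial groups. The seed coat arrays were nearer to the highest filial array than the chalazal ones, and all 4 were above it (2.95 ± 0.45, adjusted p = 6.2e-05; 2.83 ± 0.74 within the coat, adjusted p = 0.018). BAN was called higher (2.12 ± 0.45, adjusted p = 0.0011) without being a member, since seed coat lay at the floor, at 24.0 and 24.8, beside 357 and 1189 in chalazal seed coat. BAN spanned 2.60 to 54.9 (median 4.45) in the filial groups.

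Both flavonol glycosyltransferases tested were called, in opposite directions. UGT78D1, which adds rhamnose, gave 3434 and 6018 in chalazal seed coat and 13674 and 14597 in seed coat, against 2427 to 6417 (median 3798) in the filial groups, so that only seed coat stood clear of the filial arrays. UGT78D1 was called higher (0.99 ± 0.21, adjusted p = 0.00094) but not under the scaling to hybridisation controls (0.29, adjusted p = 0.27). UGT78D2, which adds glucose, gave 200.2 and 38.6 in chalazal seed coat and 228 and 251 in seed coat, against 368 to 943 (median 577) in the filial groups, and all 4 seed coat arrays were below all filial arrays (-1.98 ± 0.40, adjusted p = 0.00074). UGT80B1, a sterol glucosyltransferase whose loss gives pale seeds, did not pass the test (-0.36 ± 0.64, adjusted p = 0.68). Without seed coat replicate 1 it did, at -1.58 (adjusted p = 0.0086). HCT, of the shikimate ester step in lignin synthesis and the 1 gene of 21 on the secondary wall list that was tested, gave 4278 and 1581 in chalazal seed coat and 4851 and 3144 in seed coat, against 474 to 1293 (median 847) in the filial groups (1.85 ± 0.30, adjusted p = 0.00011).

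Sugar and glucosinolate transporters often differed within the coat. Of 32 listed transporters, 7 were tested. In the coat 4 were called higher and 1 lower than in embryo and endosperm, beside 20.8% and 22.7% of all genes. Only SWEET4 was a member, on the higher side, beside 15.2% of all genes. Between chalazal seed coat and seed coat, 4 of the 7 were called higher and 1 lower, beside 525 and 583 of all 7729 genes. Against embryo and endosperm the calls were 2 higher and 2 lower, with a median of -0.15, without the chalazal seed coat arrays, against a median of 1.41 with them. With embryo weighted equally with endosperm they were 6 and 1. SWEET4, a sugar facilitator, gave 165 and 189.6 in chalazal seed coat and 131 and 67.7 in seed coat, against 2.79 to 49.2 (median 8.37) in the filial groups, with 7 of 8 filial arrays under the floor (2.25 ± 0.42, adjusted p = 0.0004). SWEET10 gave 34178 and 18253 in chalazal seed coat, against 7.78 and 20.9 in seed coat and 4.15 to 42.5 (median 12) in the filial groups. SAG29, which is SWEET15, gave 252 and 316 in chalazal seed coat and 13994 and 15670 in seed coat, against 30.6 to 2218 (median 910.5) in the filial groups. SWEET10 was thus high in chalazal seed coat alone and SAG29 in seed coat above all other groups.

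Their differences between sides, 4.83 ± 0.39 for SWEET10 (adjusted p = 7.6e-08) and 2.10 ± 0.27 for SAG29 (adjusted p = 9.1e-06), each rest on 1 of the seed coat groups. Without the chalazal seed coat arrays SWEET10 was at -0.15, and without the seed coat arrays SAG29 was at -0.75. GTR2 and GTR1 carry glucosinolates into cells. GTR2 gave 4923 and 4435 in chalazal seed coat and 39.8 and 157 in seed coat, against 34.0 to 2086 (median 279) in the filial groups (1.41 ± 0.41, adjusted p = 0.01), and lost its call without seed coat replicate 2 (0.91, adjusted p = 0.074) and under scaling to the hybridisation controls (0.75, adjusted p = 0.11). Without the chalazal seed coat arrays GTR2 was at -1.54 (adjusted p = 0.051). GTR1 gave 1072 and 1058 in chalazal seed coat and 61.4 and 486 in seed coat, against 646 to 5270.5 (median 1632) in the filial groups, overlapped the filial arrays, and was called lower (-1.94 ± 0.40, adjusted p = 0.00083). SWEET11 and SWEET7, which were high in endosperm, did not pass the test (-0.20 ± 0.28 and 0.16 ± 0.25, adjusted p = 0.59 and 0.64). SWEET11 was called lower under scaling to the hybridisation controls (-0.90, adjusted p = 0.018). Both were called higher when embryo was weighted equally with the whole of the endosperm, at 1.02 for SWEET11 and 1.92 for SWEET7 (adjusted p = 0.0094 and 1.9e-05).

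Proteases of vacuole and cell death split by gene. Of 26 listed, 13 were tested, of which 4 were called higher and 4 lower, beside 20.8% and 22.7% of all genes, and the median was -0.11. With embryo weighted equally with endosperm these were 7 higher and 2 lower, with a median of 0.95, and under scaling to the hybridisation controls 4 and 6, with a median of -0.80. The median was 0.18 under quantile normalization. GAMMA-VPE, a vacuolar processing enzyme of vegetative tissue, gave 29015 and 19238 in chalazal seed coat and 19788 and 11411 in seed coat, against 1879.7 to 6002 (median 4279) in the filial groups. All seed coat arrays were above all filial arrays (2.30 ± 0.21, adjusted p = 3.3e-07). BETA-VPE, the form that matures storage proteins in seeds, gave 2685 and 4278 in chalazal seed coat and 3125 and 5115 in seed coat, against 8446 to 25122 (median 20583) in the filial groups. Here all seed coat arrays were below all filial arrays (-2.28 ± 0.19, adjusted p = 1.1e-07). The 2 enzymes of 1 family thus had opposite directions.

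DELTA-VPE, known from cell death of the inner integument, was not restricted to the coat captures at this stage. The part of neighbouring coat cells in the endosperm captures was not tested. It gave 708 and 539.8 in chalazal seed coat and 1736 and 2102 in seed coat, against 5.93 and 4.35 in embryo and 535 to 2153 in endosperm. The seed coat levels fell within the endosperm range, and DELTA-VPE was called higher (1.56 ± 0.29, adjusted p = 0.00038) without being a member, and not without the 2 seed coat arrays (0.75, adjusted p = 0.15). ALPHA-VPE was called lower (-2.30 ± 0.30, adjusted p = 1.2e-05) and was also high in endosperm but low in embryo (-6.35 for embryo minus endosperm, adjusted p = 1.8e-08). Its call was lost when embryo was weighted equally with endosperm (-0.71, adjusted p = 0.079).

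Of the protease list genes with only a locus name, AT4G01610 gave 16580 and 10020 in chalazal seed coat and 6294 and 9072 in seed coat, against 10.6 to 3251 (median 1255) in the filial groups (4.16 ± 0.24, adjusted p = 2.2e-09). AT1G02300 gave 474 and 967 in chalazal seed coat and 2375 and 2151 in seed coat, against 2.87 to 152 (median 37.0) in the filial groups (4.92 ± 0.41, adjusted p = 9.7e-08). Both were members without overlap between the sides. AT1G62290 was a lower member, with 733 and 1280.2 in chalazal seed coat and 2803 and 4956 in seed coat, against 8671 to 25031 (median 22004) in the filial groups (-3.27 ± 0.20, adjusted p = 4.4e-09). AT1G02305 was called lower (-0.46 ± 0.16, adjusted p = 0.026), but not when replicate 2 of peripheral endosperm, of chalazal seed coat or of seed coat was left out (adjusted p = 0.052, 0.08 and 0.073), nor under quantile normalization (adjusted p = 0.1). APA1, scpl48, AT2G14095, AT4G04460 and AT4G18425 did not pass the test, at -0.56 to 0.73. With embryo weighted equally with endosperm, scpl48, AT4G18425 and AT4G04460 were called higher (1.84, 2.14 and 0.95, adjusted p = 1.5e-05, 0.0031 and 0.047). Under scaling to the hybridisation controls APA1 and AT4G04460 were called lower (-0.80 and -1.26, adjusted p = 0.0073 and 0.002). AT4G18425 was also called higher without seed coat replicate 2 (1.65), and AT4G04460 lower without embryo proper replicate 2 (-0.92) or without the 2 chalazal seed coat arrays (-1.38).

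**Figure D4:**
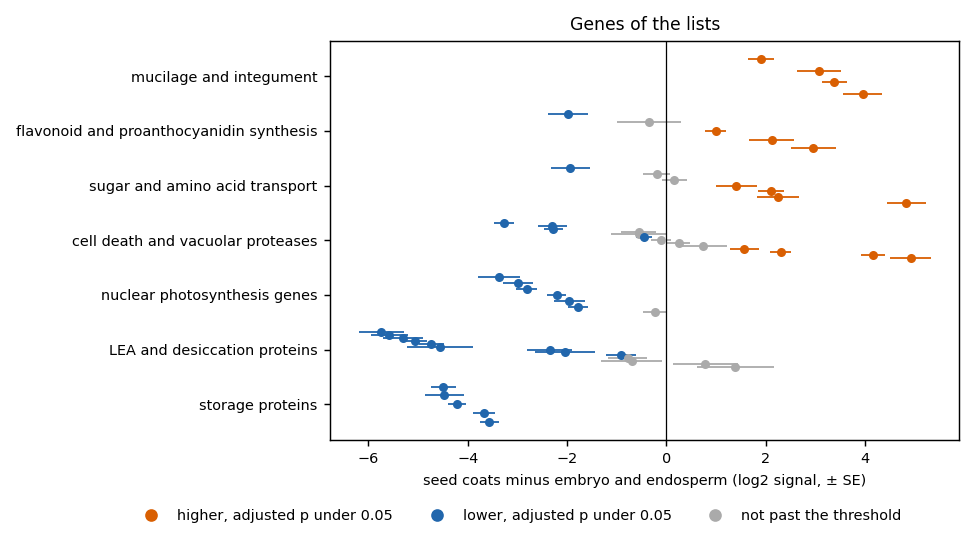
Difference between maternal seed coats and embryo and endosperm (x axis, log2 signal, bars ± SE from limma, 12 arrays compared) for each gene tested on 7 lists (y axis). All 4 mucilage genes lie above 0 and all 5 storage protein genes below it, whereas flavonoid, transport and protease genes lie on both sides.

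Storage protein genes were lower in the coat. Of 13 listed, 5 were tested, and all 5 were called lower and were members, with a median of -4.22, against -0.06 and 22.7% called lower over all genes tested. Their summed signal was 3492 to 24512 on arrays of the 2 coat groups, against 62330 to 300520 in the filial groups. PAP85, a vicilin-type storage protein, gave 361 and 273 in chalazal seed coat and 2226 and 3807 in seed coat, against 4861 to 79666 (median 24182) in the filial groups. No seed coat array reached the lowest filial array (-4.50 ± 0.25, adjusted p = 1.8e-09). AT2G28490, a list member with only a locus name, gave 177 and 167 in chalazal seed coat and 1979.9 and 2048 in seed coat, against 2614 to 30193 (median 12638) in the filial groups (-4.22 ± 0.18, adjusted p = 1.8e-10).

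These genes also differed within the coat. Of the 5, 4 were called lower in chalazal seed coat than in seed coat, by 3.21 for PAP85 (adjusted p = 8.9e-05), 3.55 for AT2G28490 (adjusted p = 1.2e-06), 3.25 for AT4G36700 (adjusted p = 9.2e-06) and 1.19 for AT2G18540 (adjusted p = 0.04) on the log2 scale. AT1G03890 did not pass that test (-1.52 ± 0.64, adjusted p = 0.12). Over all 7729 genes tested, 583 were called lower in chalazal seed coat than in seed coat. Under scaling to the hybridisation controls such calls fell from 1118 to 282 over all probe sets, and the 4 calls are not given under it. The summed signal of the 5 genes was 5202 and 3492 in chalazal seed coat and 16505 and 24512 in seed coat. The embryo marker YAB3 gave 9.15 and 6.56 in chalazal seed coat and 15.2 and 175 in seed coat, against 1978 and 1557 in embryo and at most 82.0 in endosperm. Seed coat replicate 2, which had the higher storage signal, was thus above every endosperm array for YAB3. STOMAGEN gave 25.1 and 32.9 in seed coat, within its endosperm range of 2.24 to 61.8. The part of neighbouring embryo or endosperm cells in the seed coat captures was not tested.

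Genes of desiccation tolerance held 4 of the 10 largest differences on the lower side. Of 28 listed late embryogenesis abundant genes, 13 were tested, 9 were called lower and 8 were members, with a median of -2.35. Over all genes tested 22.7% were called lower and 15.2% were lower members, with a median of -0.06. AT2G42560 gave 6.68 and 119.5 in chalazal seed coat and 2705 and 4458 in seed coat, against 4689 to 47455 (median 33030) in the filial groups. The seed coat arrays came close to the lowest filial array, while the chalazal ones were far below it (-5.74 ± 0.45, adjusted p = 5.1e-08; within the coat -5.99 ± 0.73, adjusted p = 6.5e-05). AT3G17520 gave 97.3 and 105 in chalazal seed coat and 683 and 375 in seed coat, against 2119 to 43672 (median 13377) in the filial groups. Its groups were well apart (-5.58 ± 0.38, adjusted p = 1.2e-08).

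AtLEA4-1 gave 8.07 and 127 in chalazal seed coat and 569 and 1202 in seed coat, against 1393 to 29342 (median 7670.1) in the filial groups (-5.31 ± 0.41, adjusted p = 4.2e-08). AT5G44310 gave 153 and 135 in chalazal seed coat and 778 and 1054 in seed coat, against 2315 to 53480 (median 14423) in the filial groups (-5.06 ± 0.24, adjusted p = 3.1e-10). Neither overlapped the filial groups. LEA (AT2G21490), a dehydrin named by its symbol and not on the list, gave 394 and 123 in chalazal seed coat and 1821 and 2506 in seed coat, against 3014 to 53320 (median 18551) in the filial groups (-4.65 ± 0.29, adjusted p = 5.4e-09). AT4G21020, AT3G15670 and AT1G72100 were further lower members, at -4.74, -4.57 and -2.35 on the log2 scale.

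The list had exceptions. LEA18 gave 1376 and 1175 in chalazal seed coat and 39.7 and 391 in seed coat, against 11 to 1685 (median 203) in the filial groups, with an overlap of the sides and no call (1.39 ± 0.78, adjusted p = 0.16). It was called higher without seed coat replicate 1 (2.21, adjusted p = 0.042) or without micropylar endosperm replicate 1 (1.89, adjusted p = 0.045). M10, AT3G53040 and AT4G36600 did not pass the test either (0.78, -0.70 and -0.78). AT4G36600 was called lower under the scalings to the median, to quantiles and to the hybridisation controls (-1.03, -0.98 and -1.48, adjusted p = 0.037, 0.043 and 0.0049), with a floor of 100 (-0.57), without the intensity trend and without the 2 seed coat arrays (-1.44). LEA4-5 was called lower by a small amount (-0.91 ± 0.31, adjusted p = 0.023), and lost the call without replicate 2 of embryo proper, replicate 1 of chalazal seed coat or replicate 2 of seed coat (adjusted p = 0.052, 0.093 and 0.1). AT2G18340 (-2.04 ± 0.60, adjusted p = 0.011) lost its call without chalazal seed coat replicate 1 (adjusted p = 0.081).

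Other lower members had the largest differences by the naming rule. AT1G54860, with only a locus name, led this side with 84.2 and 26.7 in chalazal seed coat and 758 and 439 in seed coat, against 5561 to 37709 (median 10690) in the filial groups. Every seed coat array was below every filial array, by 72.4-fold on average (-6.18 ± 0.26, adjusted p = 1.8e-10). AT1G04560 gave 261 and 25.7 in chalazal seed coat and 1242 and 425 in seed coat, against 3593 to 62479 (median 8625) in the filial groups (-5.47 ± 0.47, adjusted p = 1.5e-07). ATOEP16-2, a protein of the outer plastid envelope, gave 73.8 and 15.9 in chalazal seed coat and 465 and 166 in seed coat, against 864 to 20744 (median 4105) in the filial groups. Its groups did not overlap (-5.13 ± 0.32, adjusted p = 5.0e-09). MSRB6, a methionine sulfoxide reductase that repairs oxidised protein, gave 8.24 and 45.3 in chalazal seed coat and 46.2 and 73.9 in seed coat, against 11.5 to 10079 (median 1456) in the filial groups, with the lowest filial array among the seed coat arrays (-4.80 ± 0.60, adjusted p = 8.0e-06).

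PDF2.1, a defensin-like peptide, was abundant in the filial groups. It gave 1624 and 1467 in chalazal seed coat and 1395 and 3952 in seed coat, against 16606 to 59282 (median 35633) in the filial groups (-4.12 ± 0.26, adjusted p = 5.3e-09). NET4B, of a family of actin-binding proteins, gave 291 and 102 in chalazal seed coat and 617 and 1268 in seed coat, against 2296 to 21982 (median 6199) in the filial groups (-4.14 ± 0.28, adjusted p = 1.1e-08). Neither overlapped between the sides. TBL28, of the family that acetylates wall polysaccharides, gave 6.04 and 14.4 in chalazal seed coat and 13.2 and 136 in seed coat, against 346 to 1218 (median 758) in the filial groups, with 3 of 4 seed coat arrays under the floor (-4.23 ± 0.41, adjusted p = 5.2e-07).

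The widest gap on the lower side was that of AT4G27450. It gave 304 and 439.9 in chalazal seed coat and 204 and 238 in seed coat, against 2889 to 11490 (median 8637) in the filial groups, a gap of 3.68 between the nearest groups on the log2 scale (-4.69 ± 0.26, adjusted p = 1.8e-09). AT3G23090, which carries the synonym WDL3 of a microtubule-binding family, gave 253 and 489 in chalazal seed coat and 521 and 1326 in seed coat, against 6484 to 15632 (median 11622) in the filial groups (-4.32 ± 0.25, adjusted p = 2.3e-09). All seed coat arrays of both genes were below all filial arrays, and neither passed the test between embryo and endosperm (adjusted p = 0.21 and 0.15). AT4G14695, AT4G33280, AT2G23120, AT1G04680, AT1G53690, AT4G38410 and AT3G54940 were further members chosen by the rule, with differences of -4.90 to -3.73.

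Oil genes were few among those measured. Of 30 listed, 3 were tested. OLEO3, an oleosin that coats oil bodies, gave 483 and 1558 in chalazal seed coat and 6887 and 11986 in seed coat, against 11668 to 88200 (median 32314) in the filial groups. The higher seed coat array just overlapped the lowest filial one, and chalazal seed coat was far below both (-3.49 ± 0.26, adjusted p = 2.9e-08; within the coat -3.39 ± 0.42, adjusted p = 7.7e-05). FaTA and FATB, the thioesterases that end fatty acid synthesis in plastids, were at -0.88 ± 0.29 (adjusted p = 0.022) and 0.47 ± 0.30 (adjusted p = 0.23). The call of FaTA was lost without replicate 2 of micropylar endosperm, of peripheral endosperm or of seed coat, or replicate 1 of chalazal seed coat (adjusted p = 0.051, 0.053, 0.094 and 0.1), and FATB was called higher without seed coat replicate 2 (0.92, adjusted p = 0.011).

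Photosynthesis genes fell in the coat relative to embryo and endosperm. Of 44 listed nuclear genes, 7 were tested and 6 were called lower and were members, with a median of -2.21. Among all genes tested 22.7% were called lower and 15.2% were lower members, with a median of -0.06. PSAN, a photosystem I subunit, gave 113 and 449.9 in chalazal seed coat and 345 and 718 in seed coat, against 1093 to 5727 (median 2655) in the filial groups (-2.98 ± 0.30, adjusted p = 9.2e-07). PSBY, of photosystem II, gave 821 and 983 in chalazal seed coat and 779 and 1290.2 in seed coat, against 3246 to 5671 (median 4600.1) in the filial groups (-2.21 ± 0.19, adjusted p = 1.9e-07). Neither overlapped between the sides. PRK, the phosphoribulokinase of the Calvin cycle, gave 101 and 914 in chalazal seed coat and 1363 and 3238 in seed coat, against 3679 to 20932 (median 6842) in the filial groups (-3.38 ± 0.42, adjusted p = 7.3e-06). PSAE-1, LHCB4.1 and PSBW fell by 2.81, 1.78 and 1.96 on the log2 scale, and PSBW alone of the 6 overlapped between the sides. RCA, the activase of rubisco, gave 403 and 463 in chalazal seed coat and 688 and 981 in seed coat, against 407 to 1137 (median 769) in the filial groups, and did not pass the test (-0.23 ± 0.24, adjusted p = 0.47), but was called lower under the scaling to hybridisation controls (-0.92, adjusted p = 0.0089).

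Transcripts of the plastid genome were mostly lower in the coat. Of 69 plastid genes tested, 57 were called lower, 0 higher, and 35 were members, with a median difference of -0.92. Of all genes tested 22.7% were called lower, 20.8% higher, and 15.2% were lower members, with a median of -0.06. In seed coat 35 of the 69 were called above chalazal seed coat, beside 583 of all 7729 genes tested. The median of chalazal seed coat minus seed coat was -1.09 over the 69. Calls in this direction depended on the scaling. Over all probe sets 1118 were called lower in chalazal seed coat as deposited, but 282 under scaling to the hybridisation controls. The plastid count within the coat is not given under that scaling. With the chalazal arrays left out only 20 of 69 were called lower than in embryo and endosperm. Under quantile normalization 47 were called lower and 2 higher. No higher member among the genes tested lay on the plastid genome.

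Of 21 listed regulators of maturation, 3 were tested, of which 1 was called higher and 1 lower, beside 20.8% and 22.7% of all genes. EEL, a bZIP factor that acts on late embryogenesis genes, gave 3222 and 4992 in chalazal seed coat and 2626 and 2972 in seed coat, against 20873 to 42788 (median 25507) in the filial groups. All filial arrays were above all seed coat arrays (-3.01 ± 0.18, adjusted p = 3.3e-09). BZIP53, a partner of other bZIP factors at maturation genes, gave 6756 and 7550 in chalazal seed coat and 3499 and 2702 in seed coat, against 1738 to 2931 (median 2242) in the filial groups. BZIP53 was called higher (1.05 ± 0.17, adjusted p = 9.8e-05), with 1 seed coat array inside the filial range, but not under scaling to the hybridisation controls (0.35, adjusted p = 0.18) or without the 2 chalazal seed coat arrays (0.44, adjusted p = 0.13). YAB3, high in embryo alone among the compartments, did not pass the test (-1.24 ± 0.54, adjusted p = 0.07). It passed it under the 3 other scalings (-1.70 to -1.42), and without chalazal endosperm replicate 1 (-1.46, adjusted p = 0.039) or seed coat replicate 2 (-1.94, adjusted p = 0.0061).

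The 2 mitotic kinases tested were lower in the coat. AUR2, an Aurora kinase of the spindle, gave 53.6 and 116 in chalazal seed coat and 216 and 19.4 in seed coat, against 586 to 1279 (median 879.8) in the filial groups, without overlap (-3.48 ± 0.46, adjusted p = 1.2e-05). AUR1, its near copy, gave 76.8 and 94.2 in chalazal seed coat and 13.4 and 150.4 in seed coat, against 138 to 963 (median 309.6) in the filial groups, with 1 seed coat array inside the filial range (-2.23 ± 0.48, adjusted p = 0.0013). These were the 2 genes tested of 18 on the cell division list. Both were called lower and were members, beside 22.7% and 15.2% of all genes tested. Of 20 listed endosperm genes, only EXPA4, an expansin, and XTH32, a xyloglucan-modifying enzyme, were tested. Both were called lower (-2.74 ± 0.34 and -2.62 ± 0.37), beside the same 22.7% of all genes. Neither was a member, and without the chalazal seed coat arrays neither passed the test (adjusted p = 0.1 and 0.12). OPS, a gene of phloem identity and the 1 tested of 16 vascular genes, did not pass it (0.48 ± 0.36, adjusted p = 0.3). No gene of the suberin and cutin list or of the abscisic acid and gibberellin list was among those tested, so these were not analysed here.

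Families were also read from shared symbols, for at least 5 genes tested, and the families and genes described in this paragraph and the next were chosen after their values were seen. Of 8 autophagy genes, 4 were called higher and 1 lower, beside 20.8% and 22.7% of all genes, with a median of 0.97. ATG8F, a ubiquitin-like protein that is attached to autophagosomes, gave 17069 and 12570 in chalazal seed coat and 12962 and 9983 in seed coat, against 3709.5 to 8773 (median 5704) in the filial groups (1.16 ± 0.17, adjusted p = 3.7e-05). ATG8C, of the same subfamily, was called lower (-0.91 ± 0.20, adjusted p = 0.0016). Under the scaling to hybridisation controls the counts were 1 higher and 1 lower, with a median of 0.27. Of 9 VPS genes of endosomal sorting, against the same shares of all genes, 4 were called higher and 1 lower (median 0.52), against 2 and 1 (median -0.18) under that scaling.

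Other families held large differences of opposite sign. Beside the counts in this paragraph, 20.8% of all genes tested were called higher and 22.7% lower. Of 28 UDP-glycosyltransferases 7 were called higher and 7 lower (4 and 13 under scaling to the hybridisation controls), with UGT71B1 at 3.67 and UGT76E2 at -2.92 on the log2 scale. Of 9 tetraspanins, which organise membrane domains, 2 were called higher and 5 lower, and TET8 gave 5725 and 5355 in chalazal seed coat and 4830.1 and 4208 in seed coat, against 156 to 782 (median 322) in the filial groups (3.99 ± 0.27, adjusted p = 1.1e-08). TET4 was a lower member (-3.62 ± 0.37, adjusted p = 9.1e-07). Of 12 IQD genes, which encode calmodulin-binding proteins, 1 was called higher and 7 lower (median -1.65), and with the chalazal seed coat arrays left out 1 and 2. Of 11 AGAMOUS-like MADS genes, 3 were called higher and 3 lower. AGL18 gave 13381 and 11523 in chalazal seed coat and 5301 and 4522 in seed coat, against 226 to 2832 (median 1148) in the filial groups (2.98 ± 0.24, adjusted p = 7.3e-08), whereas AGL67 gave 7.53 and 5.76 in chalazal seed coat and 47.0 and 187 in seed coat, against 33.0 to 2775 (median 784) in the filial groups (-3.73 ± 0.51, adjusted p = 2.0e-05).

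Most members were not called between the 2 maternal groups. In chalazal seed coat against seed coat, 2145 of 14252 probe sets (15.1%) were called, 7.21% higher and 7.84% lower. Among the higher members 114 (4.97%) were called higher and 183 (7.98%) lower in chalazal seed coat, and among the lower members 66 (3.03%) and 248 (11.4%). This comparison uses the arrays that chose the members, and no test was made of these shares. Leaving out chalazal seed coat replicate 1 reduced the calls over all probe sets to 958, and under scaling to the hybridisation controls 5540 were called, 94.9% of them higher in chalazal seed coat.

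**Figure D5:**
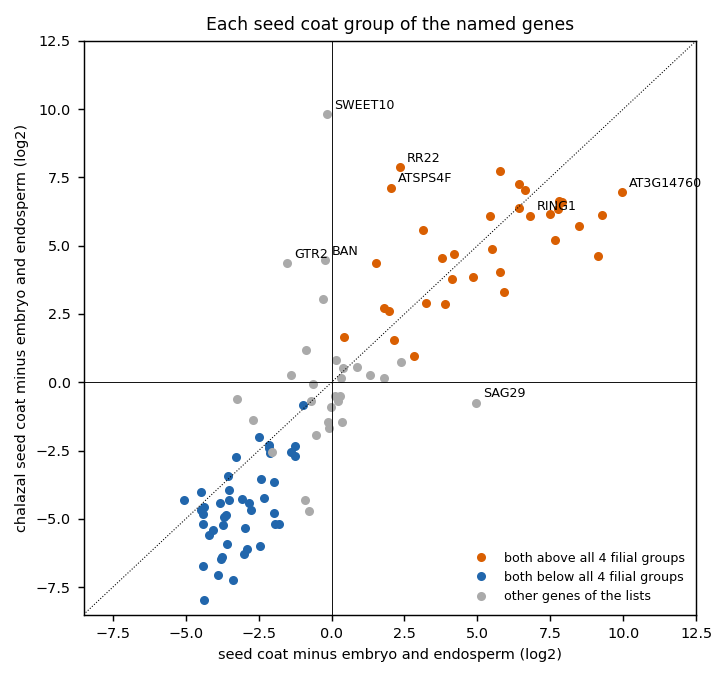
Chalazal seed coat (y axis) and seed coat (x axis), each minus the mean of the 4 filial groups (log2 signal), for the 107 genes named by the rule; the dotted line marks equal values, and both axes share the same filial arrays. SWEET10, BAN and GTR2 lie near or left of 0 on the x axis and high on the y axis, SAG29 lies at 4.96 on the x axis and under 0 on the y axis, and RING1 lies close to the dotted line.

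Within the filial side, embryo and endosperm were compared in the same fit. Over all probe sets 1114 (7.82%) were called higher in embryo than in the mean of the 3 endosperm groups and 1205 (8.45%) lower. Among the higher members 63 (2.75%) were called higher in embryo and 209 (9.11%) lower, and among the lower members 259 (11.9%) were called higher and 81 (3.72%) lower. All 5 storage protein genes and 8 of 13 late embryogenesis genes were called higher in embryo than in endosperm, whereas 9 of 13 protease list genes were called lower. AT4G01610, a higher member, was nearly absent from embryo, at 19.3 and 10.6, and differed between embryo and endosperm by -5.96 (adjusted p = 2.3e-09). Without embryo proper replicate 1 or 2 the calls over all probe sets were 1200 and 1399.

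Whole seeds, which the rule did not use, hold all compartments in unstated proportions. Of the higher members, 1195 (52.1%) had a whole seed level within or below the filial groups, 880 (38.4%) a level between the sides and 219 (9.55%) one within or above the seed coat groups. Of the lower members, 1641 (75.3%) had a whole seed level within or above the filial groups, 374 (17.2%) one between the sides and 164 (7.53%) one within or below the seed coat groups. AT3G14760 gave 2860.4 and 2801 in whole seeds and AT1G62070 gave 23415 and 18956, both between the sides or close to the chalazal level. RING1 gave 535 and 294 and AT5G63180 gave 315 and 623, far above their filial levels.

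At the border of the rule, membership turned on small distances. On the higher side THI2.1 was the symbol gene just inside, with log2 levels of 5.74 in chalazal seed coat and 8.47 in seed coat, against 5.73 in the nearest filial group. TBL45 was just outside, with 8.228 in chalazal seed coat, against 8.229 in chalazal endosperm. On the lower side TET4 was just inside, at 6.20 in seed coat, against 6.21 in embryo, and IQD24 just outside, with both seed coat groups and micropylar endosperm at the floor. A further 861 probe sets were called higher and 1063 lower without lying beyond all filial groups, and 494 and 463 lay beyond them without being called.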

How the data were processed

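The deposited values are array intensities of Affymetrix ATH1 arrays on a linear scale, which the authors obtained with GCOS, per the submitters' processing notes. Neither its version nor its algorithm is given in the sources used here. Whole seeds were part of the fit, although not of the comparison. From the deposited intensities, values under 25 were raised to 25 and log2 was taken, so that differences of dim genes are understated. The deposited arrays had trimmed means between 500.04 and 500.06, and no further scaling was applied.

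Controls (64 of 22810 probe sets) were removed. Testing required that, in some group, each array exceeded its median signal, which 14252 probe sets met. The platform table and the gene table (TAIR10.1) assigned 7823 tested probe sets to 1 gene, 298 to several and 6131 to none. A gene was represented by its probe set with the highest mean signal. In all, 87 genes had more than 1 tested probe set, and 3 of these had calls of opposite sign. Group means of all 14 arrays were estimated together in limma 3.58.1 under R 4.3.3, which left 7 residual degrees of freedom, with an intensity trend, and p-values were adjusted by Benjamini-Hochberg within each contrast. Values after ± are SE from this fit. The fit was tested on simulated data.

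Genes were named by rule: in each direction the 10 members with the largest difference, the 10 with the largest gap between the sides, the 10 largest with a symbol, and every tested gene of 15 lists. Members and lists were chosen with earlier results of these data known. Alternatives were the floor, the filter, 3 other scalings, the 12 compartment arrays alone, no intensity trend, a replicate block, embryo weighted equally with endosperm and leaving out each array. Leaving out both arrays of a seed coat group was chosen after seeing the data. The number of arrays limits the precision.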

Additional observations from a re-analysis of the deposited data

Results flagged for a closer look

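The 5 genes below, all from the gene lists, were picked out because chalazal seed coat and seed coat differed from each other in the limma fit. Their differences from the filial mean also had opposite signs. Genes with this pattern are not counted here over all genes tested. SBT4.13, a subtilase outside the lists, was called higher in the main limma fit. Without the chalazal seed coat arrays SBT4.13 was at -2.01 (adjusted p = 0.014). Of these 5 genes, both differences from the filial mean, taken alone, passed the test for SWEET7 only. Seed coat alone did not pass it for SWEET10, BAN or GTR2 (adjusted p = 0.84, 0.75 and 0.051), nor chalazal seed coat alone for SAG29 (adjusted p = 0.13). SWEET10 and BAN were under the floor of 25 on both seed coat arrays. SWEET10, a sugar facilitator, was 9.96 ± 0.64 higher in chalazal seed coat than in seed coat on the log2 scale (adjusted p = 1.3e-07), being 9.81 above the filial mean in chalazal seed coat and -0.15 from it in seed coat. BAN, of tannin synthesis, differed by 4.70 ± 0.74 (adjusted p = 0.00056), with 4.47 in chalazal seed coat and -0.24 in seed coat. GTR2, a glucosinolate transporter, differed by 5.88 ± 0.67 (adjusted p = 3.4e-05), with 4.35 and -1.54. SWEET7 differed by 2.04 ± 0.40 (adjusted p = 0.0032), with 1.18 and -0.86. SAG29 (SWEET15) had the opposite sign, -5.71 ± 0.44 (adjusted p = 5.8e-07), with -0.75 in chalazal seed coat and 4.96 in seed coat.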

How the results depend on the processing

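Of the 107 named genes, 91 were called, and all 107 kept direction and side of the threshold under no floor, the 12 compartment arrays alone and the replicate block. Calls in maternal seed coats against embryo and endosperm numbered 5419 to 6256 with 1 array left out and 5142 to 7886 under the other alternatives, against 6397. Members numbered 3940 to 4506 with 1 array left out, and 2233 where all 4 seed coat arrays had to lie beyond all 8 filial arrays, against 4473. Calls within the coat numbered 958 to 2181 with 1 array left out and 5540 under scaling to the hybridisation controls, against 2145. Calls of embryo against endosperm numbered 1200 to 2552 with 1 array left out, against 2319. The share of higher calls against embryo and endosperm was 49.3%, against 36.9% under median scaling and 21.2% under the hybridisation controls. Within the coat the share higher in chalazal seed coat was 47.9%, against 70.3% and 94.9%, and for embryo 48.0%, against 33.9% under the controls. Medians of all probe sets moved by -0.25 (median), -0.11 (quantile) and -0.70 (controls). Among the named genes, signs reversed for SWEET11 (1.02) and AT4G04460 (0.95) when embryo was weighted equally with endosperm. Without the chalazal seed coat arrays they reversed for SWEET10 (-0.15), BAN (-0.24), GTR2 (-1.54) and SWEET7 (-0.86). Without the seed coat arrays the sign reversed for SAG29 (-0.75). The cause was not tested. Deviations of same-numbered arrays from their group means had correlations of -0.06 to 0.10 between groups. These cannot show whether such arrays came from the same seeds or plants. The replicate block gave 6431, 4478, 2219 and 2361 calls in the order above. Genes dim on both sides are limited by the floor.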
